A study of Mus musculus with 4 samples.

Results

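Accessible chromatin was described around 9 genes of the nuclear lamina and its partners, namely Lmna, Lmnb1, Lmnb2, Lbr, Emd, Sun1, Sun2, Tmpo and Zmpste24. Every ATAC-Seq peak that overlapped one of these genes or the 5000 bp on either side was taken, and peaks of the 4 libraries that shared at least 1 bp were merged, which gave 123 regions of 337776 on the autosomes and X. The libraries came from sorted bone marrow cells labeled as long-term hematopoietic stem cells (HSCs), 2 from control mice and 2 from Cpt1a-KO mice, while the study's text calls them hematopoietic stem and progenitor cells, a wider population. The labels give the controls as WT, whereas the study's methods describe them as Cpt1a fl/fl mice and the KO as Cpt1a fl/fl mice that carry Vav1-Cre, which deletes the floxed gene in the hematopoietic system. Both are on a C57BL/6, CD45.2 background, the methods give adult mice of both sexes as the general rule, the labels name no treatment, and how many mice each library holds is not given in the sources used here.

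The nuclear lamina is a meshwork of intermediate filaments that lines the inner nuclear membrane. A-type lamins come from Lmna and B-type lamins from Lmnb1 and Lmnb2. The lamina holds silent chromatin at the nuclear edge, and hematopoietic cells, which squeeze through marrow and vessel walls, are known for low A-type lamin relative to B-type lamin. Lbr, Emd and Tmpo encode inner membrane or lamina-bound proteins that tether chromatin, Sun1 and Sun2 anchor the bridge between the lamina and the cytoskeleton, and Zmpste24 encodes the protease that matures prelamin A.

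ATAC-Seq marks open chromatin by transposase cutting, and each library's peaks had been called on that library alone. The files hold no read counts, so the depth of each library is unknown and a missing peak may be one that was not detected. The lists held 240940 to 277594 summits each. KO 2 had the fewest summits and the lowest share at −log10 q ≥ 5 (35.1%, against 40.5% to 46.8% in the others). The strength of a region was therefore given as a percentile within its library, taken from its highest −log10 p among all intervals of that library, with 100 as the strongest. The percentile still moves with the length of a list, which was 161962 intervals in control 2 and 196570 in KO 1. With 2 libraries against 2, an exact permutation test cannot give a two-sided p below 0.333, so the genotypes are compared by presence, by whether their percentiles overlap and by the same counts over all regions. Separate titles are all that marks the libraries of a genotype as replicates, so the spread between them may be technical. Of the stem and progenitor markers, Kit (97.3 to 98.0), Hlf (95.1 to 96.1) and Meis1 (96.3 to 97.3) had strong start-site regions in every library. Procr (66.1 to 74.7) and Gata2 (72.9 to 77.3) had weaker ones, and Mecom had none in any library. Of the 109 regions in the Mecom window, 23 were held by all 4 libraries (21.1%, against 23.8% over all merged regions). Start-site regions in every library were also found for 2 of 3 B cell genes, Pax5 (28.7 to 68.0) and Cd79a (28.2 to 72.1) but not Ebf1, which had none in any library, and for 2 of 3 granulocyte genes, Mpo (57.2 to 72.6) and Ltf (65.3 to 71.9) but not Elane, which had one in 3 libraries (0.390 to 60.8). Of the T cell genes, Cd3g had one in 3 libraries (43.6 to 61.8) and Cd3e in none, and of the silent control genes Alb, Ins2 and Myh6, 2 of which have a listed start, 0 had one in every library. In such bulk samples, fewer cells with an open site and less signal per cell cannot be told apart.

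The start sites of these genes were open in every library. The sequences upstream of 4 of them, cut to the part that lies within the region of open chromatin, are shown because Lmna had the weakest start-site region of the 9 genes and because Lmnb2, Emd and Zmpste24 were those whose start-site percentiles did not overlap between the genotypes. They are from RefSeq (GRCm38.p6, the assembly behind mm10), 5′ to 3′ on the gene's strand. They end just before the first listed start or, for Emd and Zmpste24, just before the outer end of the gene model, and the Lmna stretch lies inside its gene model, which reaches further upstream. Capitals mark the GC box GGGCGG and the CCAAT box, on either strand. The promoter table used here lists 8 of the 9 genes, without Lmnb1.
Lmna (chr3:88503353-88503516, minus strand): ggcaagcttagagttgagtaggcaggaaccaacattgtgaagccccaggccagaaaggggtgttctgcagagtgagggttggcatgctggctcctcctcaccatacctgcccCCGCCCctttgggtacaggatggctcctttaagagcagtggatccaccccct
Lmnb2 (chr10:80918246-80918369, minus strand): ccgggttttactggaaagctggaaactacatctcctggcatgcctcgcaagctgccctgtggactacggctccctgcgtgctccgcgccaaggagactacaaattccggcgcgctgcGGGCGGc
Emd (chrX:74254437-74254673, plus strand): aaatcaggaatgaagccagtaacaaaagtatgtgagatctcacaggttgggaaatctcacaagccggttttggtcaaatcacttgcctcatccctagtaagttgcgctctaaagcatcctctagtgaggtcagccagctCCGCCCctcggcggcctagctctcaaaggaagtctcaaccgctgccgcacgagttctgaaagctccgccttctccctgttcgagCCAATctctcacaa
Zmpste24 (chr4:121098250-121098460, minus strand): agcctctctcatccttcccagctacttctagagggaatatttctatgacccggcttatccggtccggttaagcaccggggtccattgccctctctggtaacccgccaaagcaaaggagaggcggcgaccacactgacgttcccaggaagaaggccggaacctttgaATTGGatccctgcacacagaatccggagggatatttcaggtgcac

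Of 9 motifs searched on both strands in the 300-base windows (250 before and 50 after the start), none of which contains another, GGGCGG was found in 7 of the 8 genes and in 46.9% of 17273 protein-coding windows. CCAAT was found in 6, all but Lmna and Lmnb2, and in 39.4% of windows. The ETS core CCGGAAG, the PU.1 site GAGGAAGT, the E2F site TTTNNCGC, the E-box in its form CACGTG, the TATA box read as TATAAA and the NRF1 and CTCF core motifs had no match in the 8 windows, and each of these was in 2.36% to 13.4% of all windows. Lmna stood apart in base composition, with 1 CpG in its window against 13 to 42 in the other 7 genes and a median of 14 over all windows. Its GC content of 56.3% equaled the median of all windows. Lbr, Sun1, Sun2 and Tmpo had a GC content of 71.3% to 72.0% with 36 to 42 CpG, and Emd (53.7%, 15 CpG), Zmpste24 (54.0%, 13 CpG) and Lmnb2 (55.3%, 24 CpG) lay closer to the median.

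The start-site regions of all 8 genes with a listed start held a peak in all 4 libraries, as did those of 61.1% of 17273 protein-coding genes with a listed start. Sun1, whose product spans the inner nuclear membrane, had the highest mean percentile over the 4 libraries (99.5), followed by Emd (98.6), Lbr (98.3), Tmpo (97.9), Lmnb1 (96.8), Sun2 (96.1), Zmpste24 (93.6), Lmnb2 (90.3) and Lmna (85.0). The median over 9794 start-site regions held by all libraries was 95.8, so that 6 of the 9 genes lay above it and 3 below. Neighbors in this order overlapped in the range of their 4 percentiles, except Sun2 with Zmpste24 and Lmnb2 with Lmna. For Lmnb1 no listed start was used, and the values are those of the strongest region in its window among those held by all 4 libraries. That region spans the first base of the gene, and its presence in every library was fixed by this choice.

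**Figure D1:**
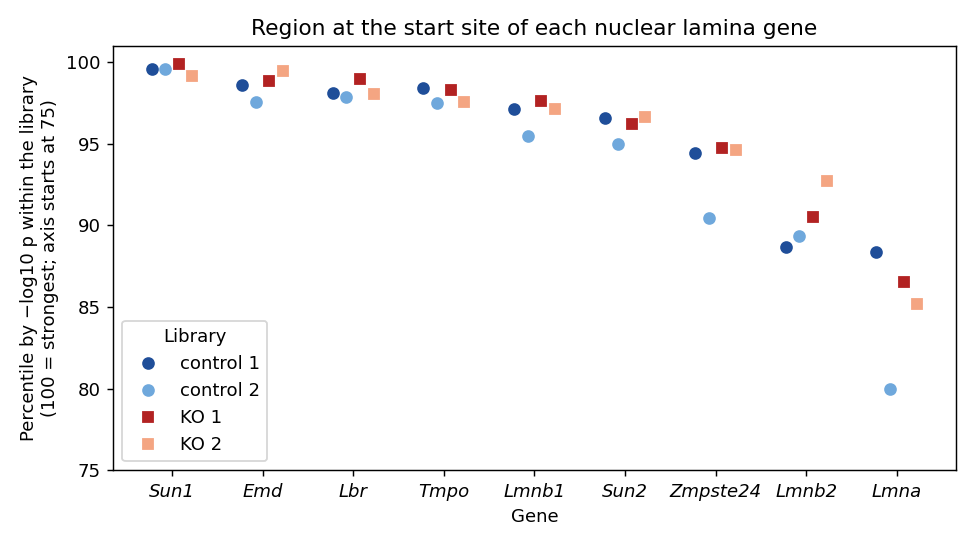
Percentile by −log10 p within the library (vertical axis, which does not start at 0) of the start-site region of each gene (horizontal axis, in order of the mean), with circles for control 1 and 2 and squares for KO 1 and 2. Both KO squares lie above both control circles at Emd, Zmpste24 and Lmnb2, and Lmna has the widest spread, from 80.0 to 88.3.

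Among the lamin genes themselves, the Lmna start-site region (chromosome 3, 88502920 to 88503516, mm10) had percentiles of 88.3 and 80.0 in the controls, with 86.5 and 85.2 in KO. Its −log10 p was 32.6 and 21.2 in the controls and 24.0 and 17.2 in KO 1 and KO 2. The KO percentiles lay between the control percentiles, and the mean difference (KO minus control) of 1.69 percentile points was smaller than the gap of 8.37 between the controls. The Lmnb1 region was at 97.1 and 95.5 in the controls and at 97.6 and 97.1 in the KO libraries. KO 2 and control 1 were almost level there, so the genotypes overlapped. Lmnb2 (chromosome 10, 80917396 to 80918369) had 88.7 and 89.4 in the controls, with 90.5 and 92.7 in KO, higher in both KO libraries by a mean of 2.57. The separation of 1.12 between the nearest libraries of the genotypes was smaller than the gap of 2.19 between the KO libraries, and the order was lost at −log10 q ≥ 5 (68.9 and 75.2 in the controls, 72.3 and 74.9 in KO).

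For the membrane proteins, the Emd region (chromosome X, 74254319 to 74255359), at the gene of the inner membrane protein emerin, was at 98.6 and 97.6 in the controls and at 98.8 and 99.5 in the KO libraries. Its −log10 p was 183, 156, 177 and 144 in control 1, control 2, KO 1 and KO 2. The nearest percentiles of the genotypes were 0.227 apart, less than the gaps of 1.01 and 0.647 within them. Emd kept this order under each of the 7 alternative settings that use all 4 libraries. Lbr, the lamin B receptor, had 98.1 and 97.9 in the controls, with 99.0 and 98.1 in KO. Tmpo, which encodes the LAP2 proteins, had 98.4 and 97.5 against 98.3 and 97.6. Sun1 had 99.6 in both controls, with 99.9 and 99.2 in the KO libraries, and Sun2, whose region is also the start of Gm16576, had 96.6 and 95.0 against 96.2 and 96.6. In these 4 genes the genotypes overlapped, and the mean differences ran from -0.03 to 0.66. At Zmpste24 (chromosome 4, 121097577 to 121098538) control 1 was at 94.4 and control 2 at 90.5, with 94.7 and 94.6 in the KO libraries. Control 2 alone stood low, and KO 2 and control 1 were 0.204 apart. This order was lost under 3 of the 7 settings (−log10 q ≥ 5, windows around summits and percentiles by fold).

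Start-site regions higher in both KO libraries thus numbered 3 of 9 and lower ones 0 of 9. Over the 9794 start-site regions of protein-coding genes, 25.9% were higher and 9.57% lower in both KO libraries, so a surplus of higher over lower calls was shared with start sites at large, and the median difference was 0.269 over these and 1.06 over the 9 genes. For Emd the values of its chromosome bear on the count. Among 1485 regions of chromosome X in all libraries, 23.8% were higher and 13.2% lower in both KO libraries. The Y chromosome held 59 to 68 summits in every library, and the X share of intervals was 1.36% to 1.55%.

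Read by the authors' fold over the local background, Emd reached the highest fold of the 9 start-site regions in each library, at 23.3 and 20.6 in the controls, with 23.3 and 25.9 in KO. Sun1 followed at 17.5 to 21.2, and Lmna was lowest, at 8.47 and 6.08 in the controls, with 7.38 and 6.91 in KO. Lmnb2 was the next lowest, at 8.63 and 9.60 against 9.12 and 10.6. The −log10 p was lowest in KO 2 at 8 of the 9 start sites, all but Lmnb2, where control 1 was lowest, and KO 2 was also the library with the fewest summits.

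The low start-site value of Lmna did not describe the whole gene. Its strongest region, from 88509684 to 88510592, spans the outer 5′ end of the gene model at 88509932, upstream of the first listed start, and had percentiles of 99.6 and 99.7 in the controls, with 99.6 and 99.8 in KO. A region at the second listed start, from 88492426 to 88493417 inside the gene, had 98.3 and 98.1 against 98.5 and 97.8. The genotype means differed by 0.0502 at the first and -0.0707 at the second of these regions. Tmpo had a similar second site, from 91181335 to 91182277, at the outer end of its gene model, where 2 transfer RNA genes also lie. It had 98.2 and 98.9 in the controls, with 98.5 and 98.8 in KO. The second listed starts of Lmnb2 and Sun1 lay in no region of any library.

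**Figure D2:**
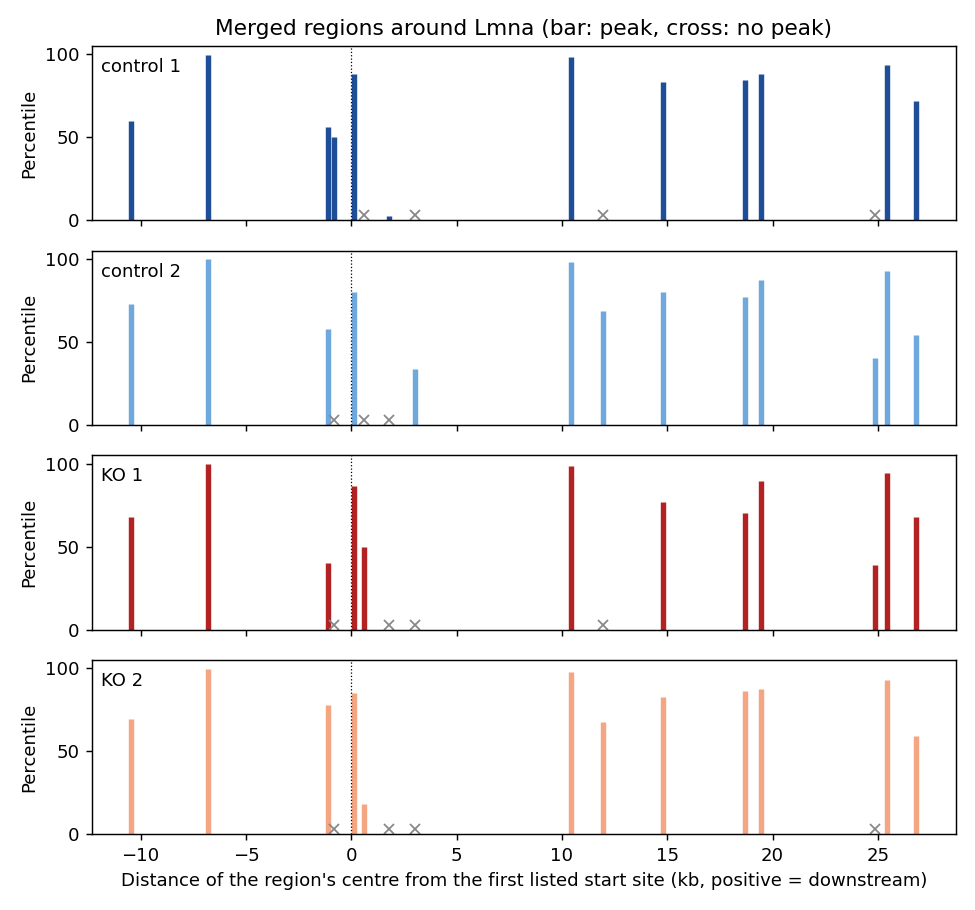
Percentile within the library (vertical axis, 0 to 100) of the 16 merged regions around Lmna, by the distance of the region's center from the first listed start site (horizontal axis, kb, positive downstream), with 1 panel per library. Bars are peaks and crosses regions without a peak in that library, and the region 610 bp downstream of the start has bars only in the KO panels.

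Lmna was densely covered. Of its 16 regions, 10 held a peak in all 4 libraries, which is 2.58 per 10 kb of window and more than in 97.1% of 21627 protein-coding genes (median 0.619). Lmnb1 had 11 of 26 (1.98 per 10 kb) and Sun2 5 of 18 (1.76). Lmnb2 (4 of 7), Tmpo (6 of 8) and Lbr (5 of 14) had 1.35 to 1.49 per 10 kb. Sun1, with the strongest start site, had 5 of 24 (0.844), Emd 1 of 3 (0.592) and Zmpste24 2 of 7 (0.408), the last pair below the median gene. Open sites outside the start-site region were thus unevenly spread over the 9 genes. They made up 9 of the 10 Lmna regions in all libraries but none of the Emd regions. Those of Lmna include the regions at its second listed start and at the outer 5′ end of its gene model.

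Over all 9 genes, 49 of the 123 regions (39.8%) held a peak in all 4 libraries against 23.8% over all merged regions, and 52 (42.3%) in 1 library against 59.3%. Another 7 were in 3 libraries, 11 in 1 control and 1 KO library, 3 in both controls only and 1 in both KO libraries only. The single-library regions were narrow and weak, with a median width of 95.5 bp and a median −log10 p of 3.01, against 487 bp and 17.1 for the regions in all 4. Sun1 had 16 of them and Emd none. They came from every library, 16 from control 1, 10 from control 2, 14 from KO 1 and 12 from KO 2.

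**Figure D3:**
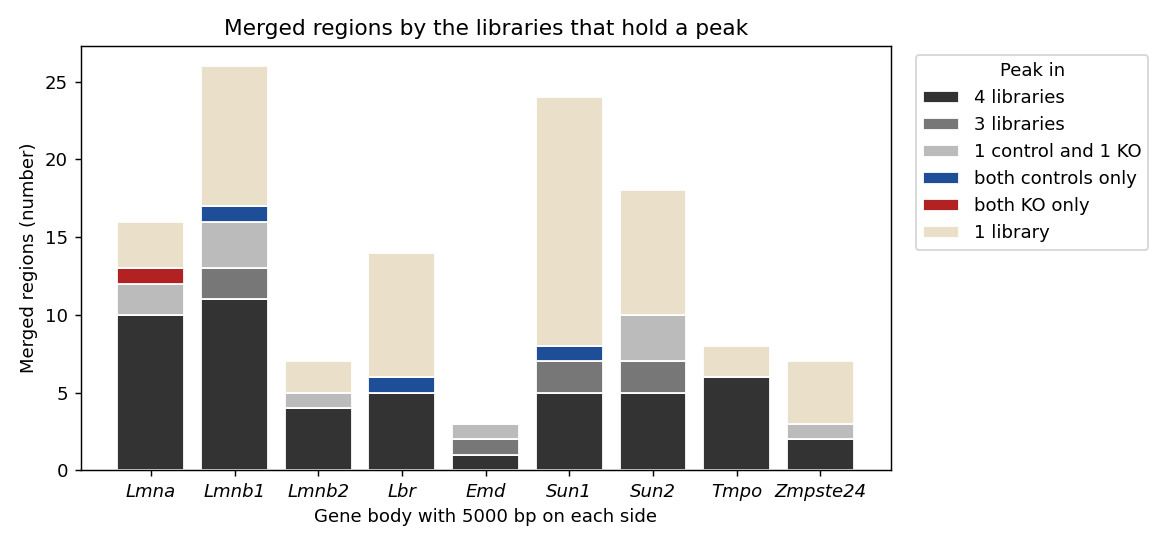
Number of merged regions (vertical axis) in the window of each gene (horizontal axis), stacked by the libraries that hold a peak there. Regions of both KO libraries only (1, at Lmna) and of both controls only (1 each at Lmnb1, Lbr and Sun1) are small beside those in 4 libraries and in 1.

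Presence split by genotype in 4 regions. Regions only in KO made up 1 of 123 (0.813%), against 1.41% over all merged regions, and regions only in control 3 of 123 (2.44%), against 2.46%. Both shares were close to or below the background. The region only in KO lay in Lmna (chromosome 3, 88502684 to 88502800, 117 bp), with a −log10 p of 4.78 in KO 1 and 2.84 in KO 2, at percentiles 50.0 and 18.3 and folds of 2.95 and 2.43. It ended just downstream of the start-site region and joined it when peaks were replaced by stretches reaching 200 bp either way from a summit, so that no region of Lmna was then only in KO. The regions only in control were a 370 bp region in Lmnb1 (−log10 p of 5.25 and 3.13), a 130 bp region in Lbr (chromosome 1, 181840112 to 181840241, 5.69 and 2.46) and a 306 bp region in Sun1 (chromosome 5, 139242212 to 139242517, 2.78 and 4.11). In the weaker of the 2 libraries that held them, the −log10 p of these 4 regions ran from 2.46 to 3.13. None of the 4 held a peak in any library at −log10 q ≥ 5 or with the 100000 strongest summits of each library.

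Of the 49 regions in all libraries, 7 ranked higher in both KO than in both control libraries (14.3%) and 7 lower (14.3%), against 22.0% and 15.4% over all 80271 such regions. Both shares were below the background in this main setting. When peaks had to cover a share of 0.5 or more, 5 of 35 were higher and 5 lower (background 23.6% and 14.1%). Under the other settings the balance between directions moved. The background stayed the same there with a flank of 1000 bp and nearly the same by fold, and moved in the rest. Higher and lower regions numbered 13 and 7 of 49 with lists of equal length (background 33.3% and 9.83%). With the 100000 strongest summits they were 8 and 2 of 27 (25.0% and 14.8%), and by fold 15 and 6 of 49 (22.2% and 15.1%). At −log10 q ≥ 5 they were 3 and 5 of 26 (7.29% and 32.2%). Windows around summits gave 4 and 6 of 46 (19.8% and 17.0%). A flank of 1000 bp gave 6 and 3 of 37 (22.0% and 15.4%). The share higher was above its background with the 100000 strongest summits, by fold and at −log10 q ≥ 5. In the rest it was below. The share lower was above its background with lists of equal length and, slightly, with the covered share, and below it in the rest. The regions counted were not always the same ones. At −log10 q ≥ 5, 3 of the 7 higher and 2 of the 7 lower regions were kept. In 2 of the 14 regions the separation between genotypes was larger than the gap within both.

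**Figure D4:**
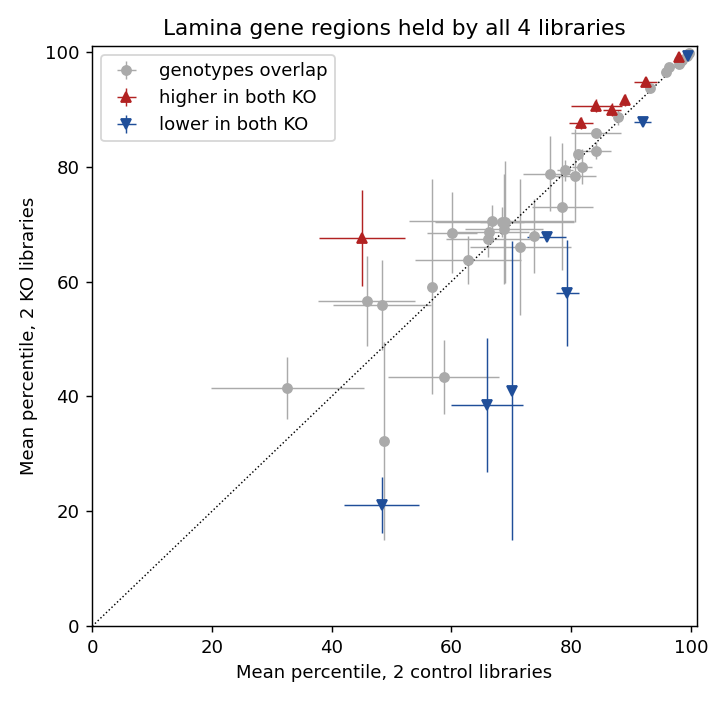
Mean percentile in the 2 KO libraries (vertical axis) against the mean in the 2 control libraries (horizontal axis) for the 49 regions held by all 4 libraries, with bars from the lower to the higher library of each genotype. Upward triangles are the 7 regions higher and downward triangles the 7 regions lower in both KO libraries, with differences from -29.0 to 22.5.

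None of the 10 Lmna regions in all libraries was separated by genotype, although 3 were higher in both KO libraries by fold, 2 were higher with lists of equal length and 1 was lower at −log10 q ≥ 5. The clearest separation was in Lmnb2, at a 242 bp region inside the gene (chromosome 10, 80914271 to 80914512). Its percentiles were 54.6 and 42.1 in the controls, against 26.0 and 16.3 in KO. The mean difference was -27.2, and the nearest libraries of the genotypes were 16.1 apart, more than the gaps of 12.5 and 9.71 within them. It is a weak site, with a −log10 p of 2.67 to 5.19, it was absent from all lists at −log10 q ≥ 5 and with the 100000 strongest summits, and it was lost when peaks had to cover 0.5 or more of a region. A flanking region of Lmnb2, from 80921865 to 80922385, had 70.3, 69.8 and 67.1 in control 1, control 2 and KO 1 and 14.9 in KO 2. KO 2 alone makes the mean difference of -29.0 there.

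The other separated regions were in the membrane protein and lamin B1 genes. A region inside Lbr (181828417 to 181828668) was at 52.2 and 37.9 in the controls and at 76.0 and 59.2 in the KO libraries, a mean difference of 22.5. The nearest libraries of the genotypes were 6.98 apart, less than the gaps of 14.2 and 16.8 within them. At −log10 q ≥ 5 and with the 100000 strongest summits, only KO 1 held a peak there. A region in the flank of Tmpo (chromosome 10, 91142847 to 91143111) had 81.3 and 77.4 in the controls, with 67.3 and 48.8 in KO. The flank of Zmpste24 (121056459 to 121056616) had a region at 71.9 and 60.0 against 26.8 and 50.1. The nearest libraries of the genotypes were 10.1 apart at Tmpo and 9.89 at Zmpste24. The gaps between the KO libraries were larger, at 18.5 and 23.3. At −log10 q ≥ 5 and with the 100000 strongest summits, neither region was held by all libraries, and KO libraries were among those without a peak. In Sun2, a region inside the gene (chromosome 15, 79739411 to 79739640) had 79.2 and 72.7 against 67.6 and 68.0, whereas one in its flank (79723248 to 79723827) was higher in KO, at 86.6 and 88.6 against 83.6 and 79.6. Lmnb1 had 3 separated regions. The one 1266 bp from the center of its start-site region was lower in KO, at 88.1 and 87.5 against 93.4 and 90.5. One of 748 bp inside the gene was higher in KO, at 88.8 and 91.0 against 88.4 and 85.4, and one of 757 bp in its flank likewise, at 89.4 and 91.7 against 88.5 and 80.0. Their mean differences were 3.019 and 6.38, each smaller than the gap between the controls (3.025 and 8.50). Across the 14 regions the differences ran from -29.0 to 22.5, with 5 of the 14 regions in a flank outside any gene and 1 at the start of Get4, beyond the end of Sun1.

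Apart from the Sun2 start-site region, which is also the start of Gm16576, starts of neighboring genes lay in 3 of the regions. The strongest region in the Lmnb2 window is the start site of Timm13, a mitochondrial import gene, at 99.3 and 99.3 in the controls, with 98.6 and 99.9 in KO. The Sun1 window reaches the start of Get4, at 99.57 and 99.61 in the controls, with 99.39 and 99.23 in KO. That region was lower in both KO libraries, with a mean difference of -0.284 and a separation larger than the gaps within the genotypes, and by fold its direction turned. The third, beside it, was in 3 libraries.

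The start-site regions most like that of Lmna, by Euclidean distance of the percentiles over the 4 libraries among 10547 genes, were those of Nrtn (distance 1.93), Hdac7 (2.06) and 4931414P19Rik (2.33). The Hdac7 values, for example, were 88.5, 81.2, 87.2 and 83.6 in control 1, control 2, KO 1 and KO 2.

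The same counts were made for 47 other genes of the nuclear envelope, whose windows held 742 regions. Of these, 168 were in all libraries (22.6%), 8 only in KO (1.08%) and 15 only in control (2.02%), and 29 and 26 of the 168 ranked higher and lower in both KO libraries (17.3% and 15.5%). Over all merged regions these shares were 23.8% in all libraries, 1.41% in KO alone and 2.46% in control alone, and 22.0% and 15.4% ranked higher and lower. Of the 41 genes with a listed start, 38 had a start-site region in all libraries. Counted by gene, 6 of these were higher and 3 lower in both KO libraries, with the region shared by Tor1aip1 and Tor1aip2 counted for each. Of start-site regions at large, each counted once, 25.9% were higher and 9.57% lower. The counts by group that follow are small and are read as a description beside these shares. Lamin processing was the group closest to Lmna and Zmpste24 in function, with the farnesyltransferase genes Fnta and Fntb, the protease gene Rce1 and the methyltransferase gene Icmt. Its listed starts were open in all libraries and overlapped between genotypes, with Icmt at 99.6 to 99.9, Fntb at 97.1 to 99.1 and Rce1 at 97.4 to 98.0. Fntb held 1 region only in KO, and the group held 0 only in control.

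Among LEM domain genes, which share with Emd and Tmpo a fold that binds BAF, the start sites of Lemd3 (97.9 and 97.7 in the controls, 98.4 and 99.1 in KO) and Ankle2 (98.2 and 97.4, 99.1 and 98.3) were higher in both KO libraries, and that of Banf1, the gene of BAF itself, was lower (99.1 and 98.3, 98.2 and 98.1). The nesprin genes, whose products pair with Sun1 and Sun2, were mixed. Syne1 was lower at its start (93.84 and 94.43, 93.77 and 93.30), though control 1 and KO 1 were almost level. Syne2 overlapped (96.1 to 97.7) and Syne3 had 4 regions only in control and 1 only in KO. Syne4 had a peak at its start in KO 1 only. In this group with Tmem201, KO alone held 2 of 187 regions (1.07%) and control alone 6 (3.21%). Tor1aip1 and Tor1aip2, which encode partners of torsin, share 1 start-site region that was higher in both KO libraries (98.7 and 98.5, 99.3 and 99.4), and Tor1a was lower (96.4 and 96.4, 96.1 and 95.6). The torsin group held 1 region of 38 only in control and 0 only in KO.

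Nuclear pore genes, the largest group with 20 genes, had 348 regions, 3 only in KO (0.862%, against 1.41% over all regions) and 5 only in control (1.44%, against 2.46%). Of their 18 listed starts 17 were in all libraries, with 2 higher in both KO libraries (Nup62 and Nup133) and 0 lower, against the 25.9% and 9.57% of start-site regions at large. The other inner membrane protein genes (Nrm, Tmem43, Plpp7 and Tmem120a) had 2 of 36 regions only in KO and 1 only in control, and the membrane sealing genes (Chmp7, Chmp4b, Chmp2a, Vps4a, Vps4b and Spast) 0 and 1 of 51. No start site of either group was separated by genotype.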

How the data were processed

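ATAC-Seq of sorted bone marrow cells was analyzed in 2 control and 2 KO libraries. The submitters' processing notes name Bowtie2, MACS2 and mm10, without versions or settings. Each library had its own peak calling, and for each summit the authors deposited a fold over local background (a ratio), a −log10 p-value and a −log10 q-value. No read counts or depths are given, so the paper's DiffBind and edgeR test could not be run. Genes and start sites came from RefSeq (GRCm38.p6), and all 9 symbols matched. Peaks of the autosomes and X were merged when they shared at least 1 bp, and percentiles were computed within libraries in pandas 2.3.3 and numpy 2.4.6 under Python 3.11.15, with figures drawn in matplotlib 3.10.9. In 253 to 492 rows a list gave the summit as a chromosome position, and it was read as such. The first listed start of each gene was used. All 9 genes were named, with their start-site regions, regions of 1 genotype only and the region with the largest separation per gene (the other separated regions were added after their values were seen), neighbors whose starts fell in such regions, and the 3 start sites nearest to that of Lmna. The members, marker genes, 7 lists of envelope genes and motifs were chosen with earlier results of these data known. The erythroid marker list is not reported here. Merging and calling were tested on simulated data. No paired fit was made.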

Additional observations from a re-analysis of the deposited data

How the results depend on the processing

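Each result was recomputed under 7 settings with all 4 libraries and with each library left out. At −log10 q ≥ 5, regions in all libraries fell from 49 to 26, those only in KO from 1 to 0 and those higher in both KO libraries from 7 to 3. None of the 3 regions only in control was kept, and 1 other, at Zmpste24, appeared. With the 100000 strongest summits these were 27 in all libraries and 0 only in KO, the 2 only in control were others, at Lmnb2 and Tmpo, 2 were lower in place of 7, and the median start-site difference was 3.02 in place of 1.06. Both settings admit fewer peaks. Lists of equal length (240881 summits) gave 1 only in control and 13 higher, a covered share of at least 0.5 gave 5 only in control, windows of 200 bp on each side of summits gave 4 higher, percentiles by fold 15 higher and a flank of 1000 bp 3 lower. Leaving out each library gave 48 to 53 regions in all remaining libraries, 2 to 16 only in KO (most without KO 2), 4 to 19 only in control (most without control 2), 14 to 21 higher, 10 to 16 lower and a median start-site difference of 0.248 to 1.56. Counts by genotype rise here because a genotype with 1 library has 1 condition less to meet. Of 99 recomputed start-site differences of single genes, 82 stayed within the spread between libraries and 17 moved beyond it. Among the 17 was Lmna at −log10 q ≥ 5 (-5.68 against 1.69). The count of 82 overstates the stability. A flank of 1000 bp and a covered share cannot change a start-site percentile. Leaving out a library cannot move a difference beyond a spread taken from the same libraries. All 17 came from the other settings. No paired analysis was possible because the counts and percentiles come from no test that could take a replicate block, and the labels do not say that equal numbers mark a shared batch. The unknown depth limits every statement on a missing peak.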
